A study of Homo sapiens with 4 samples.

Results

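The genes described here are the clustered replication-dependent histone genes, which supply the bulk histones of the nucleosome and its linker during DNA synthesis. Members were taken by annotated symbol alone, as every symbol beginning with H2AC, H2BC, H3C or H4C and a digit, together with H1-1 to H1-5. Of 18239 genes with a probe set of their own, 61 were members, carried by 105 probe sets. They comprised 5 H1, 15 H2A, 19 H2B, 10 H3 and 12 H4 genes. A further 8 probe sets named several members at once and are given apart. The rule also takes in H2BC20P, a pseudogene, and H2AC25, H2BC26 and H4C16, which lie outside the main clusters. The family was proposed with some CC-292 differences of these data known, those of H2BC15 and H2AC16, so its CC-292 differences are given as a description.

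RNA was measured on 4 arrays, each from 1 sample of an established human mantle cell lymphoma line. These were REC-1 cells as a control at 48 h, REC-1 cells with CC-292 at 48 h, Z138 cells as a control with no time in its title, and Z138 cells with CC-292 at 48 h. CC-292 is an inhibitor of Bruton tyrosine kinase. The treatment protocol gives its concentration as 1 uM and the titles of both treated samples as 1 mM. Each group is 1 array, so no p-value is given within a line, and each line is a single cell line. Differences are log2 values, so that 1 stands for a 2-fold difference. Of the B-cell and lymphoma markers, MS4A1, CD79A, CD79B, PAX5, CCND1 and SOX11 lay between 6.23 and 12.04 on every array, while 8 of 12 markers of other cell types had no array at the minimum defined below or no probe set of their own. Of the other 4, CD3D, HBB and COL1A1 lay between 3.64 and 5.18, and PECAM1, an endothelial and leukocyte marker, had 6.05 and 6.77 in REC-1 and 5.64 and 6.30 in Z138, control before CC-292.

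Nucleosomes are built from pairs of the core histones H2A, H2B, H3 and H4, and H1 binds the linker DNA between them. The clustered genes lack introns, are transcribed in S phase, and most of their mRNAs end in a conserved stem-loop bound by SLBP in place of a poly(A) tail. Some members, among them H2BC5, H2BC12 and H2AC6, are known to make polyadenylated transcripts as well. An array signal from RNA labelled through poly(A) tails sees mainly such transcripts. Whether labelling was primed in that way is not given in the sources used here. Signals of different genes come from different probes and are not compared as amounts.

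Many H2A and H2B genes lie head to head and share the DNA between their starts. Promoters from RefSeq (GRCh38.p14) were matched for 55 of the 61 members. The 250 bases before the annotated start are shown for 5 members that passed the test between the lines described below, H1-3, H2BC9 and H4C12 with the higher signal in Z138 and H2BC12 and H2AC6 with the higher signal in REC-1. Capitals mark the TATA box TATAAA, the CCAAT box CCAAT, the octamer ATTTGCAT of H2B promoters and the AC box AAACACA of H1 promoters, on either strand, and run together where matches overlap.
H1-3, chr6:26234988-26235237, minus strand: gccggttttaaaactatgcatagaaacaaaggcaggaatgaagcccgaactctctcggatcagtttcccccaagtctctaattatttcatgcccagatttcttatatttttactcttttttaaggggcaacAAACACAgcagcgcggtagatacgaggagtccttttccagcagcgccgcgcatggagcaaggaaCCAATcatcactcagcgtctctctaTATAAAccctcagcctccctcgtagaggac
H2BC9, chr6:26251364-26251613, plus strand: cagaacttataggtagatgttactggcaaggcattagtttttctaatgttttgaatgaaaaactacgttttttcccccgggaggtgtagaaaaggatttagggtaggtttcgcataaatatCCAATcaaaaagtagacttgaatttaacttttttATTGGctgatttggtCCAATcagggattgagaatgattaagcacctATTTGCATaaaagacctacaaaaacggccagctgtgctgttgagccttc
H4C12, chr6:27831561-27831810, minus strand: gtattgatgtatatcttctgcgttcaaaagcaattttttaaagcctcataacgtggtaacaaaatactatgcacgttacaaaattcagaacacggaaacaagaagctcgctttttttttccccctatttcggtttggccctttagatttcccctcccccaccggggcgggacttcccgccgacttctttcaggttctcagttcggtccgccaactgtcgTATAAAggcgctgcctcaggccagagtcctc
H2BC12, chr6:27146859-27147108, minus strand: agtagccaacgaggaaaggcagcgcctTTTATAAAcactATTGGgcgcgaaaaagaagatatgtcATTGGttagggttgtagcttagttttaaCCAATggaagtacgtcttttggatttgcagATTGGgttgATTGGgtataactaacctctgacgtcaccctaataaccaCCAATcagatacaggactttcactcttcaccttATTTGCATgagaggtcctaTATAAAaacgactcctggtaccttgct
H2AC6, chr6:26123922-26124171, plus strand: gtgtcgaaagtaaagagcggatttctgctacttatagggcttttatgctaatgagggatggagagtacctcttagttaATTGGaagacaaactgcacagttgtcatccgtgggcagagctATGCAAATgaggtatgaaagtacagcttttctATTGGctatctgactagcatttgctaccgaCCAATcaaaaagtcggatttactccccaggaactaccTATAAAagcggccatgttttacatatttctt

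TATAAA stood at position -30 before the start in H1-3 and at -31 in H4C12 and H2AC6, and was in neither strand of the H2BC9 window. The AC box was in all 5 H1 windows and in 0 of the H2A, H2B, H3 and H4 windows, against 4.95% of 27305 promoters of the same length. The octamer was in 14 of 18 H2B windows (77.8%) and 11 of 14 H2A windows (78.6%), against 1.66% of all promoters. It was in 1 of 8 H3, 0 of 10 H4 and 0 of 5 H1 windows. CCAAT was in every H1, H2A, H2B and H3 window but in 3 of 10 H4 windows (30%), against 33.0% of all promoters. TATAAA was in 36 of 55 member windows (65.5%), against 11.1%. Windows of head-to-head genes overlap, so an H2A and an H2B gene can hold the same letters. H2BC9 and H2BC12, which differed in opposite directions between the lines, both held the octamer and CCAAT.

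Members had to reach a log2 signal of 4.63, the median over all probe sets and arrays, on at least 1 array to be kept. This left 30 members, 4 H1, 6 H2A, 9 H2B, 7 H3 and 4 H4 genes, or 49.2% against 59.3% of all genes. The 31 others lay between 2.59 and 4.59 on every array, and 9 of them fell below the median of the nonspecific background probes (3.06 to 3.12) on at least 1 array. H1-1, a linker histone gene, was one of these, with 2.90 and 3.19 in REC-1 and 3.19 and 3.25 in Z138, control before CC-292. H2BC21, fixed by name, also stayed below the minimum, at 4.17 and 4.34 in REC-1 and 4.10 and 4.22 in Z138. Only 7 members reached the minimum on all 4 arrays, H1-2, H2AC20, H2BC5, H2BC12, H3C4, H4C3 and H4C12. Of the 30 kept members, 15 reached the minimum only in Z138 and 3 only in REC-1, so that such a member had to differ between the lines by its choice. Near-identical histone genes can share probes: 8 of the 30 chosen probe sets carried the x mark and 7 the s mark, which the array design gives to sets that may hybridize with related transcripts.

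**Figure D1:**
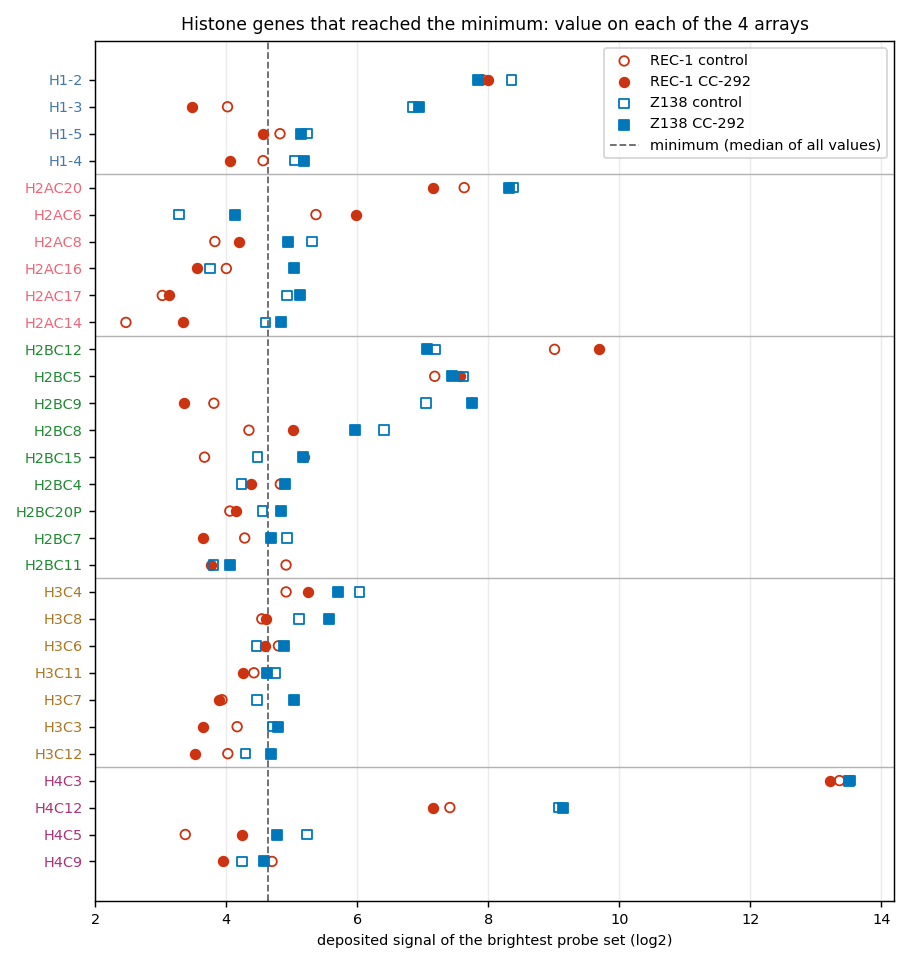
Deposited log2 signal (horizontal axis) of the 30 kept histone genes, grouped by class and ordered within it by mean, with 1 point per array and the minimum of 4.63 as a dashed line. H1-3 and H2BC9 lie between 3.35 and 4.02 on the REC-1 arrays and between 6.84 and 7.75 on the Z138 arrays, and 22 of the 30 members stay under 6.61, the 70th percentile of all values.

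The first question was how the lines differ. H2BC9, a core H2B gene, and H1-3, a linker histone gene, were far lower in REC-1 than in Z138, and H4C12, an H4 gene bright in both lines, was 3.54-fold lower. H2BC12 and H2AC6 went the other way and were 4.67-fold and 3.91-fold higher in REC-1. H4C3, the brightest H4 probe set, was at -0.22. The difference was averaged over the control pair and the CC-292 pair and tested with limma across 10823 genes, with treatment as a block. The labels do not say whether the samples came from separate cultures, so p-values reflect only the spread between these arrays. That spread includes any difference between the lines in their response to CC-292. In bulk RNA, fewer cells in S phase and less histone RNA per cell cannot be told apart.

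H2BC9 was at 3.81 and 3.35 in REC-1, here and below control first and CC-292 second, and at 7.05 and 7.75 in Z138. The lines were far apart, and over all 3 probe sets of the gene the highest REC-1 value was 4.0 and the lowest Z138 value 6.38. The mean difference was -3.82 (limma SE 0.29, adjusted p 4.75e-04, SD 0.69 over 3 probe sets), or 14.1-fold. The chosen set of H2BC9 carries the x mark, and the gene has no set without a mark. H1-3 had 4.02 and 3.47 in REC-1 and 6.84 and 6.94 in Z138, with a single probe set. Its mean difference was -3.15 (limma SE 0.21, adjusted p 2.83e-04), or 8.86-fold. In both genes the REC-1 values lay below the minimum, near background, which can understate the fold, and both were kept only through Z138. Without a minimum the limma adjusted p was 1.56e-04 for H2BC9 and 1.05e-04 for H1-3.

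H4C12 was bright in both lines, at 7.41 and 7.15 in REC-1 and 9.07 and 9.14 in Z138. The arrays of the lines did not overlap, and the mean difference was -1.82 (limma SE 0.17, adjusted p 8.93e-04, SD 0.03 over 2 probe sets). A probe set shared by H4C12 and H4C11 had 7.58 and 7.34 in REC-1 and 9.44 and 9.40 in Z138, the same pattern. H4C3 had 13.4 and 13.2 in REC-1 and 13.5 and 13.5 in Z138, a mean difference of -0.22 (limma adjusted p 0.299). H4C5 was at -1.20 (limma adjusted p 0.0294), but the size was -1.86 between controls and -0.54 between CC-292 arrays. This gene was kept only through Z138 (adjusted p 0.0308 in limma without a minimum). Its second probe set, below the minimum, had a mean difference of -0.07. H4C9 was at 0.46 between controls and -0.62 between CC-292 arrays, so the arrays of the lines overlapped.

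H2AC17 and H2AC14, core H2A genes, reached the minimum only in Z138. H2AC17 had 3.02 and 3.13 in REC-1 and 4.93 and 5.12 in Z138, and H2AC14 had 2.47 and 3.33 in REC-1 and 4.59 and 4.84 in Z138. Both lay below the background median on the REC-1 control array, so the size of their mean differences, -1.95 and -1.81, is not a measured fold. They were kept through the line in which they are high. In the limma fit of all genes without a minimum their adjusted p was 3.87e-04 and 0.00119. H2AC20 was bright throughout, at 7.63 and 7.16 in REC-1 and 8.38 and 8.31 in Z138, with a mean difference of -0.95 (limma adjusted p 0.00887). Its second probe set stayed below the minimum. H2AC8 was at -1.12 (limma adjusted p 0.0107), and was kept only through Z138 (adjusted p 0.0117 in limma without a minimum). A second H2AC8 probe set, below the minimum, was at -0.07.

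H2AC6 and H2BC12 were the 2 members that passed the test with higher signal in REC-1. H2AC6 had 5.37 and 5.98 in REC-1 and 3.28 and 4.13 in Z138, a mean difference of 1.97 (limma SE 0.16, adjusted p 6.18e-04). It was kept only through REC-1 (adjusted p 4.28e-04 in limma without a minimum). Its single probe set carries the s mark. H2BC12 had 9.01 and 9.70 in REC-1 and 7.19 and 7.07 in Z138, a mean difference of 2.22 (limma SE 0.23, adjusted p 0.00129). For both genes every REC-1 array lay above every Z138 array. The second H2BC12 probe set was below the minimum and differed by -0.04 between controls and -0.91 between CC-292 arrays, so the direction rests on the bright set. H2BC5 had 7.18 and 7.56 in REC-1 and 7.61 and 7.44 in Z138 (mean difference -0.16, limma adjusted p 0.559). Its probe set without a mark was higher in REC-1, by 0.52 between controls and 1.43 between CC-292 arrays.

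H2BC8 had 4.34 and 5.02 in REC-1 and 6.41 and 5.96 in Z138, on average 2.83-fold lower in REC-1 (limma adjusted p 0.00964, SD 0.40 over 2 probe sets). The remaining H2B genes were closer between the lines. H2BC7 was at -0.84, the pseudogene H2BC20P at -0.59 and H2BC15 at -0.40. H2BC4 at 0.04 and H2BC11 at 0.40 were higher in REC-1 between controls and lower between CC-292 arrays. H2BC7 and H2BC20P passed (limma adjusted p 0.0129 and 0.0306), but both were kept only through Z138. Without a minimum the limma adjusted p was 0.0190 for H2BC7, and 0.0557 for H2BC20P, which then did not pass. Among linker histones H1-2 had 7.91 and 7.99 in REC-1 and 8.36 and 7.84 in Z138, which overlap. H1-4 was at -0.81 and passed (limma adjusted p 0.0262), whereas H1-5 at -0.50 did not (0.0519). H1-4 was kept only through Z138 and also passed limma without a minimum (adjusted p 0.0357). The 7 H3 genes lay close together, from -0.84 in H3C3 to 0.03 in H3C6, and H3C3, H3C4, H3C7 and H3C8 passed. Of these, H3C3, H3C7 and H3C8 were kept only through Z138. Without a minimum their limma adjusted p was 0.0279, 0.0285 and 0.0283.

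Of the 30 kept members, 18 passed limma at an adjusted p under 0.05 (60.0%), against 44.7% of all genes. Lower in REC-1 were 16, where 23.1% of all genes were lower, and higher 2, where 21.6% were higher. Below 0 were 25 of the 30, against 50% of all genes. The choice of members seen in 1 line bears on these counts. Without a brightness minimum, 22 of all 61 members passed (36.1%), 19 lower and 3 higher in REC-1, against 24.3%, 12.6% and 11.8% of 18239 genes. The median of the mean difference over all 61 members was -0.35, with 49 below 0, while 50.8% of all genes were below 0 and their median was -0.0069. By class these medians over all members were -0.50 for H1, -0.35 for H2A, -0.16 for H2B, -0.64 for H3 and -0.31 for H4, a description without a test between classes. Pair by pair, 3 members were at least 2-fold higher and 9 lower in REC-1 between controls, against 11.9% and 12.4% of all genes. Between CC-292 arrays 2 were higher and 12 lower, against 12% and 13.3%. Over all 61 members, without a minimum, 3 were higher and 10 lower between controls, against 7.58% and 7.53% of 18239 genes. Between CC-292 arrays 3 of the 61 were higher and 12 lower, against 7.31% and 8.14%. Both pairs had the same sign in 22 of 30 kept members, where 82.8% of all genes did, and 20 were lower in REC-1 in both, against 41.9%.

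As a measure of RNA integrity, the ACTB control probes at the 3' end exceeded those at the 5' end by 0.77 and 0.53 in REC-1 and by 1.12 and 1.11 in Z138. This gap moved with the line, and its part in these differences was not tested.

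**Figure D2:**
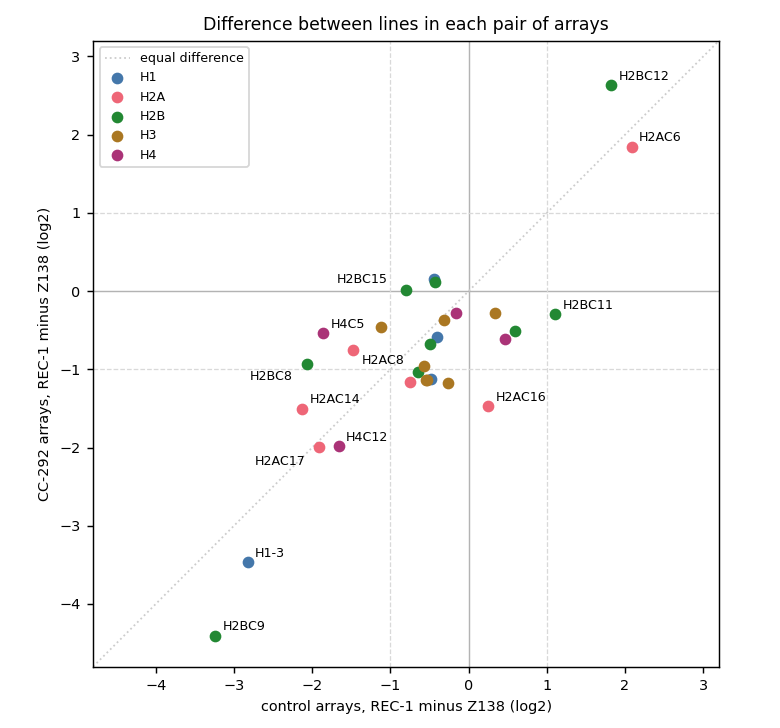
Difference between REC-1 and Z138 on the control arrays (horizontal axis) and on the CC-292 arrays (vertical axis), in log2, 1 point per kept histone gene coloured by class. H2BC9 and H1-3 lie far below 0 and H2BC12 and H2AC6 far above 0 in both pairs, which share no array, while H2AC16 and H2BC11 change sign.

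H1-3 and H2BC9 are near each other in the major cluster. In the order of RefSeq genes, H4C6, H4C7 and H3C7 lie between them. H3C7 was at -0.84 for the mean difference, while H4C6 at -0.21 and H4C7 at -0.37 stayed below the minimum. H3C8, on the other side of H2BC9, was at -0.76. The kept gene between them thus had a smaller difference, 1.79-fold lower in REC-1. H2BC12, higher in REC-1, is flanked by H2AC11 at -0.35, which was below the minimum, and H4C9 at -0.08.

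There were 11 head-to-head pairs of an H2A and an H2B gene with starts between 194 and 248 bases apart. In only 2 of them were both genes kept. H2BC8 and H2AC8, with starts 233 bases apart, were 2.83-fold and 2.17-fold lower in REC-1 on their brightest probe sets. The second set of H2BC8 was at -0.94, and that of H2AC8, below the minimum, at -0.07. H2BC4 and H2AC6, with starts 246 bases apart, differed by 0.04 and 1.97 on average over both treatments. The 0.04 of H2BC4 averages 0.59 between controls and -0.51 between CC-292 arrays, where H2AC6 was at 2.09 and 1.85. A second H2BC4 probe set, below the minimum, was at 0.96 and 0.07. Between controls both genes of the pair were thus higher in REC-1.

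**Figure D3:**
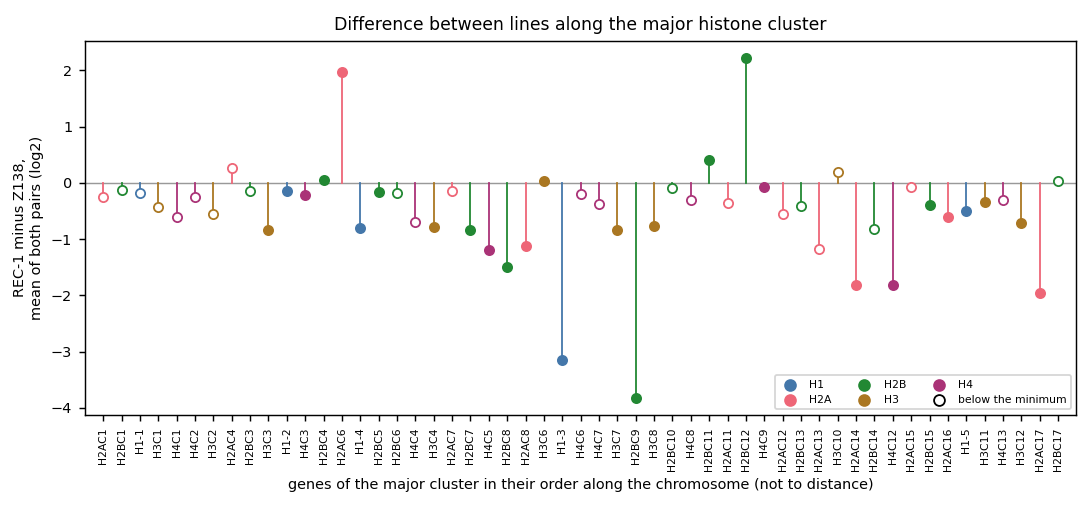
Mean REC-1 minus Z138 difference (vertical axis, log2) of histone genes of the major cluster in chromosomal order, with open points for genes below the minimum. The long negative stems at H1-3 and H2BC9 have shorter ones between them, and the long positive stems at H2AC6 and H2BC12 stand beside genes near or below 0.

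The second question was what differed after CC-292. In each line, every histone class had members above 0 and members below 0. In REC-1, H2BC15 was 2.85-fold higher and H2BC11 2.22-fold lower on the CC-292 array, and in Z138 H2AC16 was 2.44-fold higher and 0 members were 2-fold lower. All of these were dim, and at least 2-fold only on the brightest probe set: the mean over 3 probe sets of H2BC11 was -0.43 and that over 2 of H2AC16 was 0.75, while H2BC15 has 1 set, which carries the s mark. The 8 bright members, H1-2, H1-3, H2AC20, H2BC5, H2BC9, H2BC12, H4C3 and H4C12, lay between -0.55 and 0.71 in both lines. Of these, H1-3 and H2BC9 were bright only in Z138, with REC-1 values below the minimum. The -0.55 was that of H1-3 in REC-1. For all genes, 0.841% were at least 2-fold higher and 0.758% lower in REC-1, and 0.213% higher and 0.351% lower in Z138. PECAM1 was higher by 0.72 and 0.66 with CC-292 in the respective lines, and its part in these differences was not tested.

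H2BC15 had 3.67 on the REC-1 control and 5.18 on the CC-292 array, and 4.47 and 5.17 in Z138. It was the member with the largest mean over both lines, and higher in both, by 1.51 and 0.70. H2AC6, at 5.37 and 5.98 in REC-1 and 3.28 and 4.13 in Z138, was also higher in both lines, by 0.61 and 0.85. Both Z138 values of H2AC6 lay below the minimum. H2AC14 was higher by 0.87 and 0.24, with its REC-1 values near background. H2BC7 was at -0.63 and -0.25, but the mean over its 3 probe sets was 0.03 and 0.07.

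H2BC11 had 4.91 and 3.76 in REC-1 and 3.81 and 4.06 in Z138, so that only the REC-1 control reached the minimum. H2AC16 had 4.0 and 3.56 in REC-1 and 3.75 and 5.03 in Z138, and only the Z138 CC-292 array reached it.

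H2BC12, the bright H2B gene, had 9.01 and 9.70 in REC-1, a difference of 0.69 on the brighter of its 2 probe sets (mean of both -0.048), and 7.19 and 7.07 in Z138, a difference of -0.12. H2BC5 was higher by 0.38 in REC-1 (SD 0.15 over 3 probe sets, all above 0) and at -0.17 in Z138 (SD 0.27). The shared probe sets of H2AC18 and H2AC19 were at -0.54 and -0.13 in REC-1 and -0.21 and -0.07 in Z138. Both were bright, at 6.94 to 7.94 over all arrays. The brighter of 2 sets shared by H4C14 and H4C15 had 5.11 and 4.78 in REC-1 and 5.35 and 5.49 in Z138, and that of H3C13, H3C14 and H3C15 had 3.60 and 3.63 in REC-1 and 4.08 and 4.74 in Z138. The other 3 shared sets stayed below the minimum.

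Among linker histones, H1-3 was at -0.55 and 0.09 in REC-1 and Z138, H1-4 at -0.50 and 0.15, H1-5 at -0.27 and -0.09, and H1-2 at 0.08 and -0.52. Of the H4 genes, H4C3 was at -0.14 (SD 0.15 over 2 probe sets) and -0.02 (SD 0.04), and H4C12 at -0.26 (SD 0.04) and 0.07 (SD 0.15). Both differences were small beside those of the other H4 genes. H4C9 was at -0.74 and 0.34, and H4C5 at 0.86 and -0.46. The H3 genes ran from -0.52 in H3C3 to 0.33 in H3C4 in REC-1, and from -0.33 in H3C4 to 0.57 in H3C7 in Z138. H1-3, H1-4, H3C3 and H4C5 stayed below the minimum on both REC-1 arrays, and H4C9 on both Z138 arrays. For genes with 1 probe set at the minimum the error is taken from all genes with several, whose pooled SD was 0.31 in REC-1 and 0.25 in Z138. This is an error between probes, not between samples.

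By class, the REC-1 medians over kept members were -0.38 for H1, 0.24 for H2A, 0.10 for H2B, -0.17 for H3 and -0.20 for H4, against -0.050 for all kept genes. The Z138 medians were 0.0019 for H1, 0.22 for H2A, 0.25 for H2B, 0.39 for H3 and 0.025 for H4, against 0.0085. Over all 30 the medians were -0.16 in REC-1, with 17 below 0 where 57.8% of all genes were, and 0.12 in Z138, with 12 below 0 where 48.1% were. The classes overlap widely, as the strip plots of class values show, and H1 and H4 rest on 4 genes each. Of the 30 members, 15 reached the minimum only in Z138, so both of their REC-1 values lay below it. For 3 members the same held the other way round. With the minimum required within REC-1, its H2B median was 0.53. Several class medians change sign with the choice of probe sets.

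**Figure D4:**
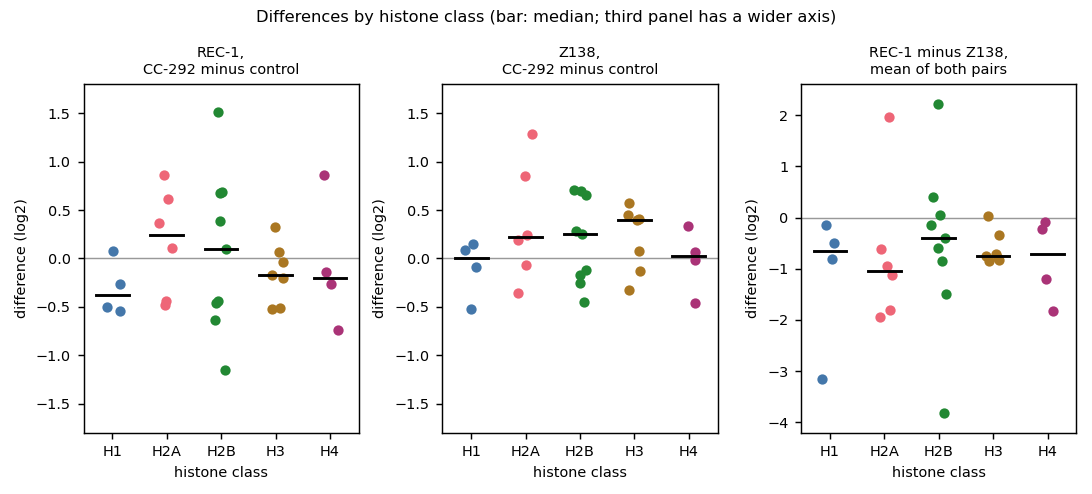
CC-292 minus control in REC-1 and in Z138 and the mean difference between lines, in log2 (vertical axes), for kept genes of each histone class, with 1 point per gene and a bar at the class median. The classes overlap in every panel, and the line panel has a wider axis because of H2BC9 and H1-3.

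The 2 CC-292 differences share no array. They had the same sign in 11 of 30 members, where 47% of all genes had. Of these, 6 were higher and 5 lower in both lines, against 20.5% and 26.5% of all genes. Lower in REC-1 and higher in Z138 were 12 members, against 31.4% of all genes, and the reverse held for 7, against 21.6%. In 9 of the 30 the lines had opposite differences that both exceeded the pooled SD between probe sets, against 5.56%. With limma over both lines, and cell line as a block, 0 of 10823 genes and 0 members passed at an adjusted p under 0.05. An unadjusted limma p under 0.05 was seen in 472 genes (4.36%). The spread in this fit includes any real difference of response between the lines. A response in 1 line alone was thus not tested, and the 0 does not show that CC-292 had no effect. Without the block, limma also called 0 genes, and 13 had an unadjusted p under 0.05. Dim genes vary more: 22 of the 30 members were below the 70th percentile of all values, 6.61, where 4.04% of genes differed at least 2-fold in REC-1, against 0.610% of brighter genes. The median size of the REC-1 difference was 0.47 in the 22 dim members and 0.29 in all 3116 dim genes, and in Z138 0.35 and 0.23.

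**Figure D5:**
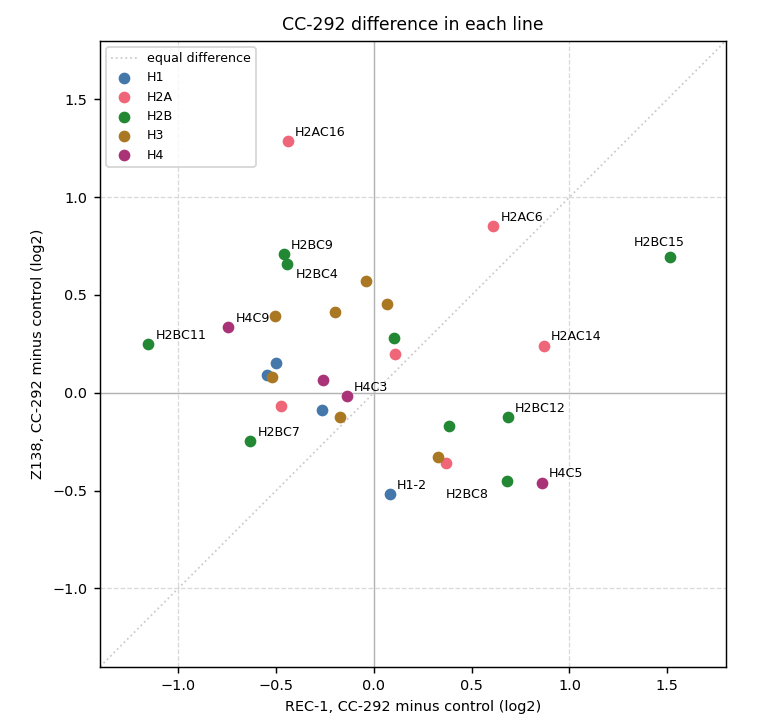
CC-292 minus control in REC-1 (horizontal axis) and in Z138 (vertical axis), in log2, 1 point per kept histone gene coloured by class. H2BC15 and H2AC6 lie above 0 in both lines, H2AC16 is the 1 point above 1 in Z138, and 19 of the 30 points lie in the quadrants of opposite sign.

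The machinery that makes histone mRNA was then examined through 31 kept genes of 33 listed. On their chosen probe sets, none of them differed 2-fold with CC-292 in either line. Their medians were -0.09 in REC-1, with 20 below 0, and 0.013 in Z138, with 13 below 0. Of all genes, 57.8% and 48.1% were below 0. SLBP, the stem-loop binding protein gene, was at -0.20 in REC-1 (SD 0.06 over 2 probe sets) and 0.09 in Z138 (SD 0.07). NPAT, which encodes the coactivator of the clusters, was at 0.03 (SD 0.23 over 3 probe sets) and -0.25 (SD 0.49). CASP8AP2, a histone locus body gene, was at -0.10 and 0.23. LSM10 and LSM11, genes of the U7 particle that takes part in cutting the mRNA end, were at -0.32 and -0.23 and at 0.34 and -0.32. The 2 probe sets of LSM11 lay far apart in REC-1 (SD 0.96). The lowest in REC-1 were the cyclin genes CCNE1 at -0.75 and CCNE2 at -0.57, which drive NPAT through CDK2, at -0.43.

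Between the lines, 6 of these 31 genes passed limma as higher in REC-1 and 5 as lower, against 21.6% and 23.1% of all genes. NPAT was higher in REC-1 with a mean difference of 1.08 (limma adjusted p 0.00466), and HINFP, which encodes an H4 promoter factor, with one of 1.28 (0.00258). ERI1, the gene of a 3' exonuclease of histone mRNA, was at -1.07 (limma adjusted p 0.00435). SLBP was at -0.51 and did not pass (limma adjusted p 0.0546).

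Histone variants made outside the clusters were represented by 8 kept genes of 14 listed, a list that also held H2AC25, H2BC26 and H4C16 under older symbols. H1-10, a linker variant gene, had 6.73 and 6.85 in REC-1 and 8.99 and 8.99 in Z138, and H2AX, the variant of the DNA damage response, had 12.4 and 12.1 in REC-1 and 10.4 and 10.6 in Z138. Their mean differences of -2.20 and 1.70 passed (limma adjusted p 3.70e-04 and 0.00138), as did H3-3B, an H3.3 gene, at -0.68 (0.0183). The 4 probe sets of H3-3B had an SD of 0.85 between controls and 0.65 between CC-292 arrays, about the size of its difference. H2AZ1 was at 0.03 and did not pass (limma adjusted p 0.912). With CC-292, 7 of the 8 were below 0 in REC-1 and 5 in Z138, against 57.8% and 48.1% of all genes, and none differed 2-fold.

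Of 25 chaperone genes, 19 were below 0 in REC-1 (median -0.15) and 16 in Z138 (median -0.018), against the same 57.8% and 48.1%. NASP, an H3 and H4 chaperone gene, was at -0.05 and -0.11. ASF1B, whose product hands H3 and H4 to replicating DNA, was at -0.63 in REC-1, and TONSL was at -1.02 there and 0.49 in Z138. All 24 kept S-phase genes were below 0 in REC-1 (median -0.35) and 9 of them in Z138 (median 0.08), again against 57.8% and 48.1% of all genes. The clustered histone genes had 17 of 30 below 0 in REC-1, beside these 24 of 24, a difference that was not tested. The 2 counts are not alike in brightness. For 15 of the 30 histone members both REC-1 values lay below the minimum. The dimmest S-phase gene in REC-1, CLSPN, was above it at 6.21 and 5.37. Between the lines, limma called 1 chaperone gene higher and 4 lower in REC-1, and 0 S-phase genes higher and 8 lower, with CDC6 at -1.66, where 21.6% of all genes were higher and 23.1% lower. Of the 25 chaperone genes the called share is thus below that of all genes. These lists were chosen with results of the same arrays known and are no independent evidence.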

How the data were processed

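Members and lists were chosen with earlier results of these data known. Per the submitters' processing notes, the deposited log2 probe-set signals were made by the authors with RMA and Affymetrix Expression Console 1.1. Whether all arrays were processed together is not given in the sources used here. Biotin-labelled cRNA came from 150 ng total RNA, per the labels. The log2 scale was inferred from the values. The table held 49386 probe sets. Symbols came from the platform annotation and were checked by Entrez identifier against RefSeq, where all 105 member probe sets matched. A gene was represented by its 1-symbol probe set with the highest mean and kept if any array reached log2 4.63, which left 10823 of 18239 genes. Groups came from sample titles. Averages over both lines or both treatments were tested across all kept genes by lmFit and eBayes of limma 3.58.1 under R 4.3.3. The fit had 1 residual and 4.50 prior degrees of freedom, with Benjamini-Hochberg over all kept genes. A check on simulated arrays, with 1 spread common to all genes, required only that estimates matched the differences put in. Genes named were, by rule, the 5 highest and 5 lowest members per comparison, members at least 2-fold different, the brightest of each class, the 3 highest and lowest of each list, and genes fixed by name, of which the text gives a part. Alternatives were other brightness minimums, normalizations, probe-set choices, fold thresholds and limma settings. Precision is limited by 1 array per group. Python 3.11.15, pandas 2.3.3, numpy 2.4.6 and matplotlib 3.10.9 were used.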

Additional observations from a re-analysis of the deposited data

Results flagged for a closer look

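Opposite CC-292 differences in the 2 lines, both larger than the pooled SD between probe sets, were seen in 9 of the 30 kept members, against 5.56% of all genes and 11.01% of dim genes. Of the 9, 8 were dim, and the other, H2BC9, was bright only in Z138. With 1 array per group the difference between lines was not tested for any of them. Lower in REC-1 and higher in Z138 were H2AC16 (-0.44 and 1.29, a difference between lines of -1.73), H2BC9 (-0.46 and 0.71, -1.17), H2BC4 (-0.44 and 0.66, -1.10), H4C9 (-0.74 and 0.34, -1.08) and H3C12 (-0.51 and 0.39, -0.90). Higher in REC-1 and lower in Z138 were H4C5 (0.86 and -0.46, 1.32), H2BC8 (0.68 and -0.45, 1.13), H2AC8 (0.37 and -0.36, 0.73) and H3C4 (0.33 and -0.33, 0.66). The second set of H2BC8, which also reached the minimum, was reversed, at -0.97 in REC-1 and 0.45 in Z138. Both values passed the pooled SD, so the direction of H2BC8 in either line is not settled. Its mean over all probe sets was -0.15 in REC-1, and that of H4C9 was -0.025 in Z138. The other sets of H2BC9 were at -0.48 and -0.09 and at -0.10 and 0.36. Neither had opposite differences that both passed the pooled SD. Second sets below the minimum were at -0.12 and -0.11 in H4C5 and at 0.11 and 0.06 in H2AC8. Those of H2AC16, at -0.37 and 0.21, and H2BC4, at -0.76 and 0.13, kept the signs of the brightest set.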

How the results depend on the processing

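Of 376 values for family, classes and counts under alternatives, 318 kept their size within the spread and 58 moved. Centring, quantile normalization, cyclic loess, limma without the block and limma with an intensity trend moved none. The labels give no replicate numbers, and arrays were paired only through the line or treatment block. Without it limma called 19 members between lines in place of 18, and 5075 of all 10823 genes in place of 4840. For CC-292 it called 0 members as before. The minimum within a comparison was added after the data were seen. Why values moved was not tested.

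With the 70th percentile, which left 8 members, the REC-1 median of H2A was -0.48 and the Z138 medians of H2A and H2B were -0.068 and -0.12. In the same setting 0 members were 2-fold higher or lower in REC-1 and 0 higher in Z138. Between controls the H1 median was -1.64, with 1 member higher and 3 lower, where 25.2% of 7707 genes differed 2-fold either way. Between CC-292 arrays the medians of H1, H2B and H4 were -1.66, 0.12 and -1.14. There 1 member was higher and 4 lower, where 26.8% of 7707 genes differed 2-fold either way. limma called 1 member higher and 4 lower in REC-1, where it called 4320 of 7707 genes either way. This minimum left fewer members and took out the dim ones, and the part of each in the lower counts was not tested.

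With probe sets that have no s, x or a mark, which left 17 members, the H2A medians were -0.13 in REC-1 and -0.068 in Z138. The Z138 medians of H2B and H3 were -0.19 and 0.082. In REC-1 0 members were 2-fold higher and 0 lower, and in Z138 0 were higher. The H2B median was 0.0089 between controls and 0.37 between CC-292 arrays, where that of H4 was -1.22. Between controls 1 member was higher and 5 lower, and limma called 10 lower, where it called 1368 of 3437 genes either way.

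With the mean of probe sets, 0 members were 2-fold lower in REC-1, 0 higher in Z138, 1 higher between controls and 1 between CC-292 arrays. The H3 median was 0.082 in Z138 and -0.46 between CC-292 arrays. With the probe set of median difference, 0 members were lower in REC-1, 0 higher in Z138, 1 higher between controls, 1 between CC-292 arrays, and limma called 1 higher. Of all 10823 genes, limma called 3689 either way in that setting. The Z138 medians of H2B, H3 and H4 were -0.027, 0.082 and -0.26, and H2BC12 reversed, to -0.042 between controls and -0.91 between CC-292 arrays.

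Without a filter, the H2A median was -0.067 in Z138, -0.42 between controls and -0.36 between CC-292 arrays, and that of H4 -0.30 between controls. With shared probe sets, the H2A median was -0.17 in REC-1 and -0.25 between controls, and that of H4 -0.24 between controls. With the minimum within REC-1, its H2B median was 0.53. At 1.5-fold, 6 members were higher and 3 lower in REC-1 and 5 higher in Z138, and at 3-fold 0, 0 and 0, with 4 lower between CC-292 arrays. The shares of all genes at 1.5-fold and 3-fold are not given here, so these counts are not read against them. Of 1033 values of single members, 989 kept their size, 42 moved and 2 reversed.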
